A study of Mus musculus with 5 samples.

Results

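The genes described here encode the subunits of the mitochondrial respiratory chain and of ATP synthase, with the carriers that serve them, measured in the retina of mice labelled as Rb mutants and of wild-type mice. Members were chosen by gene symbol. They are all spots whose platform annotation gave a single symbol starting with Nduf, Sdh (Sdha to Sdhd), Uqcr, Cox4 to Cox8 or Atp5, and Cyc1, Cycs, Slc25a4, Slc25a5 and Vdac1. The array held 50 such genes on 61 spots, of 5708 single-symbol genes on 7722 spots and 17328 spots in all. They comprised 21 complex I genes, 3 complex I assembly factors, 1 complex II gene, 6 complex III genes, 7 complex IV genes, 10 ATP synthase genes and 2 carrier or channel genes. Sdha, Sdhb, Sdhc, Cycs and Slc25a4 had no single-symbol spot.

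Each of the 5 arrays compared, on a single slide, RNA of mutant mice labelled Rb- in channel 2 with RNA of wild-type mice in channel 1. The Rb protein restrains the entry of cells into S phase. The labels give retina as the tissue, the series title adds explants, which are pieces kept in organ culture, and the mutant allele, any Cre driver, strain and age are not stated in the sources used here. All arrays carried the same labels and form 1 group of 5 replicates, named arrays 1 to 5 in the order of their accessions. Whether they came from separate animals or cultures is not stated, so p-values reflect array-to-array spread alone, which may be technical.

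The measured quantity was the deposited log2 ratio of the 2 channels, and each array was centred here on its own median. The labels do not name the dye of either RNA, so the direction of the ratio is unknown. The channel order of the ratio is kept as deposited, and signs are those after centring. A negative value is assigned to neither mutant nor wild-type RNA. Usable ratios covered between 71.8% and 75.9% of spots on an array. The probe of the targeted gene measured on all arrays, for Rb1, gave -0.06, 0.20, -0.23, 0.04 and -0.08 on arrays 1 to 5, and its other probe 0.95, 2.06, -1.33 and 1.72 on arrays 1, 2, 3 and 5. It is not known if the allele alters the RNA seen by these probes, which therefore do not check the labels. The spread of ratios differed, with a scaled median absolute deviation of 1.00 on arrays 1 and 3 and of 0.49, 0.58 and 0.63 on arrays 2, 4 and 5. Log2 sizes are therefore not directly comparable between arrays. The arrays were scanned at a focus position of 10 (arrays 1 to 3) or 0 (arrays 4 and 5), a scanner setting treated as a possible batch. Fewer cells of a type and less RNA per cell cannot be told apart in such samples.

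The respiratory chain passes electrons from NADH and succinate to oxygen through complexes I to IV in the inner mitochondrial membrane. Complexes I, III and IV pump protons, and ATP synthase, also called complex V, uses the return flow of protons to make ATP. In the retina, mitochondria crowd the inner segments of photoreceptors, whose ion pumping makes the tissue one of the heaviest users of oxygen in the body. Most of these subunits are encoded in the nucleus, where NRF1, ETS factors such as GABPA, YY1 and the oestrogen-related receptors are known to bind respiratory chain promoters.

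Promoters were searched for short letter strings of those factors, and 3 are printed because they belong to the genes of complex I, complex IV and ATP synthase with the smallest p among those that hold a match. Each window runs from 250 bases before to 50 bases after the gene's start, 5′ to 3′ on the gene's strand, in RefSeq's GRCm38.p6 assembly. Capitals mark the matches, and positions are counted from the start, with negative numbers before it.
Ndufb10: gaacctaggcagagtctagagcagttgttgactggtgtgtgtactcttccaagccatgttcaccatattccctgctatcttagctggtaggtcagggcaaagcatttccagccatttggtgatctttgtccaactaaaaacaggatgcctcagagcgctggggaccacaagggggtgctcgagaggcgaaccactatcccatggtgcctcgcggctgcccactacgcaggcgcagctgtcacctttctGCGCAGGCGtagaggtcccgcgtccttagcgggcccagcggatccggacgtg
Cox6a1: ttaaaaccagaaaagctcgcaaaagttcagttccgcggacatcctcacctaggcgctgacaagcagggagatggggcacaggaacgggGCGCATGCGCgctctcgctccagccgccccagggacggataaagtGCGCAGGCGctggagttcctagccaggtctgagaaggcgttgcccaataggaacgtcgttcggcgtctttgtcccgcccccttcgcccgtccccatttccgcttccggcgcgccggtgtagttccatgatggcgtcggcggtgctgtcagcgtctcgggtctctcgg
Atp5g3: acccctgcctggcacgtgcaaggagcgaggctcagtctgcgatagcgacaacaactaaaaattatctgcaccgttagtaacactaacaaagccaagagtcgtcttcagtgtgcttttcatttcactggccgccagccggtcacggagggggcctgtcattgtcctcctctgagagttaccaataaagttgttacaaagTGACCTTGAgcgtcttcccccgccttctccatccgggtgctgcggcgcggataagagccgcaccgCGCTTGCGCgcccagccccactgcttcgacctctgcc
The Ndufb10 window lies on the minus strand at chr17:24724374-24724673, and its match to the NRF1 letters begins at position -2. Cox6a1 lies on the minus strand at chr5:115348909-115349208. Its first run in capitals, from position -162, holds overlapping matches to the NRF1 letters on both strands, and its other run begins at -117. Atp5g3 lies on the minus strand at chr2:73911277-73911576, with the letters of the oestrogen-related receptors from position -52 and those of NRF1 from position 14, both on the opposite strand.

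Searching both strands, the NRF1 letters GCGCANGCG were present in 13 of 41 member genes with a listed promoter. They stood in 29.5% of the 44 member windows, against 14.0% of the windows of all single-symbol genes on the array and 6.25% of all promoters in the table. These genes were Ndufb10, Ndufa8, Ndufa11 and Ndufa6 of complex I, the assembly factor Ndufaf4, Sdhd, Uqcrc1, Uqcr11 and Cox6a1, and Atp5g3, Atp5o, Atp5g2 and Atp5k of ATP synthase. The ETS letters CCGGAAGT stood in 9.09% of member windows (7.41% of those of array genes, 3.89% of all). The YY1 letters AAGATGGCG stood in 6.82% (3.10% and 1.40%). The letters of the oestrogen-related receptors, TCAAGGTCA, stood in 4.55% (0.296% and 0.423%), which were the windows of Sdhd and Atp5g3. A match is a description of the window and no evidence of binding. The windows listed for Atp5d overlap each other, and Atp5j and Vdac1 also had 2 windows each.

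**Figure D1:**
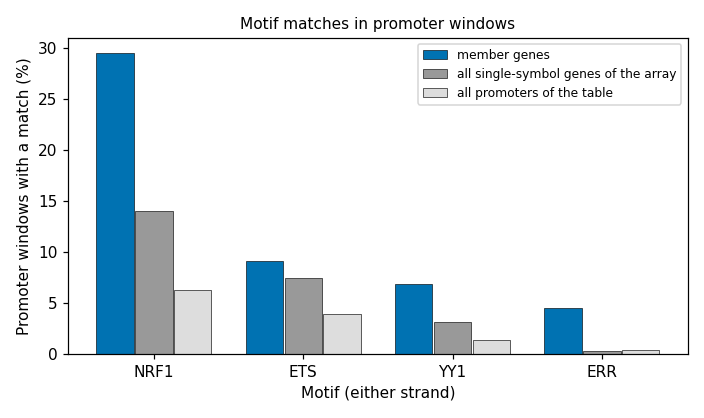
Percentage of promoter windows (vertical axis) that hold the letters of each motif on either strand, for member genes, all single-symbol genes of the array and all promoters of the RefSeq table. The NRF1 letters stand in 29.5% of member windows, 14.0% of array-gene windows and 6.25% of all windows.

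The design asks whether expression of a gene in mutant retina departs from that in wild-type retina. A spot was tested when measured on at least 4 arrays, with an intercept against 0 in limma and Benjamini-Hochberg adjustment over all 10036 tested spots. This held for 54 member spots of 45 genes. Most respiratory chain and ATP synthase spots had a negative mean after centring (75.9%), as did most single-symbol spots (65.8%), and none was called. No member spot passed an adjusted p of 0.05, where the background of called spots was 0.0%, and the smallest adjusted p of a member was 0.432. At an unadjusted p under 0.05, 7 of 54 member spots (13%) were negative and 0 positive. Over all tested spots 5.9% were negative and 5.52% positive at that level, and over single-symbol spots 6.18% were negative and 3.35% positive. Those 7 spots belong to Ndufb9, Ndufb10 and Ndufab1 of complex I, Uqcrc1 of complex III, Cox4i1 of complex IV, and Atp5g3 and Atp5b of ATP synthase. Their unadjusted p was 0.0316, 0.0357, 0.0432, 0.0486, 0.0340, 0.0310 and 0.0389 in that order, from limma. The other spot of Atp5b had a positive mean of 2.50 with an unadjusted limma p of 0.0591, so the gene has no clear direction. With 1 array left out, spots on at least 3 of the remaining arrays were tested. Negative member spots at an unadjusted p under 0.05 then numbered 0 of 55 without array 5, 1 of 55 without array 1 and 1 of 54 without array 3. They numbered 4 of 55 without array 2 and 6 of 57 without array 4. Over single-symbol spots the counts were 235 of 6251, 196 of 6342, 198 of 6181, 320 of 6367 and 237 of 6331 in that order.

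Member spots were also read by the agreement of their signs. Of the 47 member spots measured on all 5 arrays, 10 (21.3%) were negative on every array and 0 were positive on every array. The shares among single-symbol spots were 12.8% negative and 3.39% positive. Set against the median of all genes on each array, which does not depend on centring, 11 of 47 (23.4%) lay below it on all 5 arrays, where the share of single-symbol spots was 9.8%. The mean was negative for 41 of 54 member spots (75.9%) and for 65.8% of single-symbol spots. The median of the spot means was -0.22 for members and -0.22 for all single-symbol spots. The SD of a spot over arrays had a median of 0.57 among member spots, against 0.72 among single-symbol spots. In all, 23 of 54 member means lay within 0.25 of 0.

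The sign of these shares leans on the centring. With arrays centred on the median of single-symbol spots, 4 member spots were negative and 0 positive at an unadjusted p under 0.05. The counts over all 5822 tested single-symbol spots were then 231 negative and 298 positive. Centring on all usable spots gave 360 negative and 195 positive. Centred on the spots measured on all 5 arrays, members again gave 4 and 0, and single-symbol spots gave 218 negative and 320 positive. With no centring, members gave 13 negative and 1 positive of 54, and single-symbol spots 1144 and 60 of 5822.

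**Figure D2:**
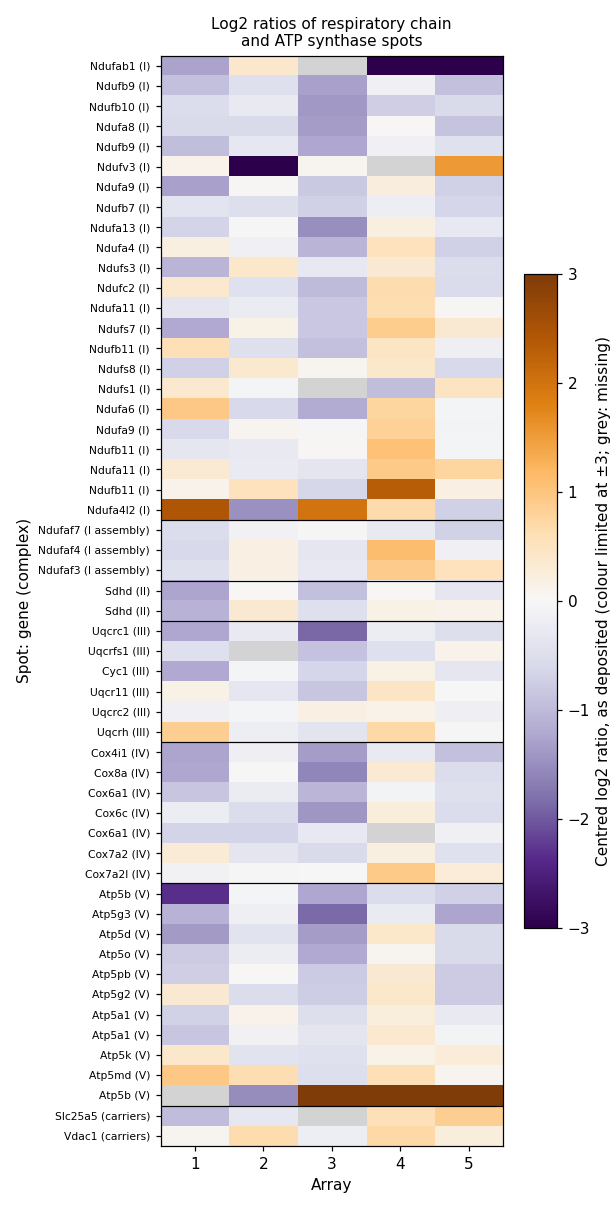
Centred log2 ratios of the 54 tested member spots (rows, grouped by complex) on arrays 1 to 5 (columns). Purple is negative and orange positive after centring, with missing cells in grey and the colour limited at 3. Columns 1 and 3 hold most of the deep purple cells, in column 4 orange predominates, and the second Atp5b spot is dark orange on arrays 3 to 5.

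Complex I, the NADH dehydrogenase, takes electrons from NADH into the chain. Of its 23 tested spots 18 had a negative mean, 3 were negative at an unadjusted p under 0.05 and 4 were negative on all 5 arrays. Ndufb9, a subunit of the membrane arm, had -0.93, -0.45, -1.30, -0.13 and -0.93 on the log2 scale, arrays in order, and its second spot -0.96, -0.32, -1.22, -0.14 and -0.44. Both spots were negative on all 5 arrays, deepest on array 3 and shallowest on array 4, and they differed by a median of 0.086. The mean of the first was -0.75 ± 0.46 (SD, n = 5; limma adjusted p = 0.432).

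Ndufb10, a neighbouring subunit of the same arm and the complex I gene whose promoter is printed above, had -0.53, -0.27, -1.39, -0.74 and -0.58. It too was negative on every array, and its mean was -0.70 ± 0.42 (SD, n = 5; limma adjusted p = 0.432). Ndufb7, also of the membrane arm, had -0.39, -0.48, -0.72, -0.17 and -0.64, a mean of -0.48 ± 0.22. Its values were the least spread of the members that were negative throughout. Ndufa8, an intermembrane-space subunit, had -0.57, -0.58, -1.36, 0.01 and -0.89, with only array 4 not negative, and a mean of -0.68 ± 0.50. Ndufab1, the mitochondrial acyl carrier protein, which also serves fatty acid synthesis, had -1.28, 0.38, -4.03 and -3.16 on arrays 1, 2, 4 and 5. Its mean of -2.02 ± 1.97 (SD, n = 4; limma adjusted p = 0.435) was the lowest among tested member spots, with values spread over more than 4 log2 units.

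Other complex I genes changed sign from array to array. Ndufa9, a subunit near the quinone site, had -1.31, 0.04, -0.81, 0.23 and -0.72 on one spot and -0.61, 0.06, -0.04, 0.81 and -0.08 on the other. The first spot was the lower on every array, by a median of 0.64, and the sign of the second mean, 0.03, turned under other settings. Ndufa11, of the membrane arm, had 0.32, -0.24, -0.36, 0.92 and 0.76 on one spot and -0.37, -0.23, -0.83, 0.63 and 0.04 on the other, and was highest on array 4 by both. Ndufb11, of the membrane arm, had 3 tested spots with means of 0.50 ± 1.10, -0.10 ± 0.63 and 0.08 ± 0.56 (SD, n = 5 each). Its array values were 0.11, 0.52, -0.63, 2.33 and 0.18, then 0.58, -0.45, -0.94, 0.46 and -0.15, then -0.35, -0.28, 0.03, 1.04 and -0.06. The 3 spots shared no sign except on array 4, where all were positive.

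The remaining complex I genes gave no p under 0.05. Ndufs3, Ndufs7 and Ndufs8, core subunits near the quinone site, had means of -0.23 ± 0.62, -0.13 ± 0.86 and -0.10 ± 0.53. Ndufa4l2, chosen after its values were seen, had the highest mean among tested complex I spots at 0.58 ± 1.67, with 2.42, -1.47, 1.98, 0.66 and -0.70 on arrays 1 to 5. It is a paralogue of Ndufa4 known to be induced in low oxygen, and its large positive ratios lay on arrays 1 and 3. Ndufa4, which was named for complex I and is now counted with complex IV, had 0.19, -0.14, -1.06, 0.53 and -0.70. Ndufa6, Ndufc2, Ndufs1 and Ndufa13 had means between -0.45 and -0.02. Ndufv3, of the NADH-binding part, had 0.10, -3.76, 0.06 and 1.52 on arrays 1, 2, 3 and 5, with array 2 alone negative. Ndufaf7, a complex I assembly factor that methylates a core subunit, was also chosen after its values were seen. It was negative on all 5 arrays, at -0.54, -0.11, -0.03, -0.27 and -0.70, while the assembly factors Ndufaf3 and Ndufaf4 had means of 0.17 ± 0.56 and 0.05 ± 0.66.

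Complex II, succinate dehydrogenase, also belongs to the citric acid cycle, and only its membrane anchor Sdhd was measured. Sdhd had -1.26, 0.01, -0.92, 0.00 and -0.34 on one spot and -1.08, 0.33, -0.45, 0.15 and 0.10 on the other. Both spots were clearly negative on arrays 1 and 3 and near 0 or positive on arrays 2 and 4. The means were -0.50 ± 0.57 and -0.19 ± 0.58 (SD, n = 5 each), with limma adjusted p of 0.486 and 0.778.

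Complex III passes electrons from quinol to cytochrome c. Uqcrc1, a core protein of the complex, had -1.24, -0.27, -1.90, -0.20 and -0.49 on arrays 1 to 5, negative throughout and deepest on arrays 1 and 3. Its mean was -0.82 ± 0.73 (SD, n = 5; limma adjusted p = 0.435). Uqcrc2, the partner core protein, was chosen after its values were seen because it did otherwise, with -0.13, -0.05, 0.17, 0.13 and -0.16. Its mean of -0.01 ± 0.15 had the smallest SD among tested member spots. Cyc1, the cytochrome c1 of the complex, had -1.21, -0.06, -0.64, 0.15 and -0.34, and Uqcrfs1, the Rieske iron-sulfur protein, -0.45, -0.90, -0.46 and 0.10 on arrays 1, 3, 4 and 5. Both redox subunits were negative on arrays 1 and 3, with means of -0.42 ± 0.53 and -0.43 ± 0.41. The small subunits Uqcrh, the hinge protein, and Uqcr11 were positive on array 1 and negative on array 3. Uqcrh had 0.85, -0.18, -0.38, 0.69 and -0.03, and Uqcr11 had 0.14, -0.34, -0.86, 0.45 and -0.01.

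Complex IV, cytochrome c oxidase, hands the electrons to oxygen. Cox4i1, the nuclear-encoded regulatory subunit, had -1.25, -0.16, -1.34, -0.26 and -0.92, and was negative on all 5 arrays. Its mean was -0.79 ± 0.55 (SD, n = 5; limma adjusted p = 0.432). Cox6a1, whose promoter is printed above, encodes the isoform of subunit VIa found in most tissues. It had -0.85, -0.21, -1.05, -0.08 and -0.47 on one spot and -0.66, -0.66, -0.30 and -0.12 on arrays 1, 2, 3 and 5 on the other. Every measured value of both spots was negative. With the spots averaged on each array first, the gene's mean over arrays was -0.45 ± 0.28. Cox8a had -1.23, -0.01, -1.58, 0.32 and -0.53, and Cox6c had -0.20, -0.53, -1.42, 0.25 and -0.53. Both are small subunits that were negative on 4 of 5 arrays and positive on array 4. Cox7a2 had 0.30, -0.36, -0.57, 0.20 and -0.43, a mean of -0.17 ± 0.39. Cox7a2l, which joins complexes III and IV into supercomplexes, had -0.11, -0.04, -0.02, 0.93 and 0.27. It was the only complex IV gene with a positive mean, 0.21 ± 0.43, and that mean turned negative, to -0.25, with no centring.

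ATP synthase has a catalytic head, a ring of c subunits in the membrane that turns with the proton flow, and stalks that join them. Atp5g3 encodes the c subunit, and its promoter is printed above. It had -1.10, -0.16, -1.86, -0.24 and -1.24, negative on all 5 arrays. Its mean was -0.92 ± 0.72 (SD, n = 5; limma adjusted p = 0.432). Atp5g2 encodes the same mature c subunit, so signals of these paralogues may not be fully separate. Atp5g2 was chosen after its values were seen, and had 0.33, -0.53, -0.75, 0.41 and -0.78, which differ in sign from Atp5g3 on arrays 1 and 4.

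Atp5b, the catalytic beta subunit, had 2 spots that disagreed. The first had -2.34, -0.07, -1.23, -0.52 and -0.70, with a mean of -0.97 ± 0.87 (SD, n = 5; limma adjusted p = 0.432). The second had -1.51, 3.12, 4.79 and 3.61 on arrays 2 to 5, with a mean of 2.50 ± 2.77 (SD, n = 4; limma adjusted p = 0.438). The spots lay a median of 4.33 log2 units apart and opposite in sign on arrays 3, 4 and 5, so no direction is given for this gene. With the spots averaged on each array first, and array 1 given by the first spot alone, the mean over arrays was 0.28 ± 1.82. By contrast, the 2 spots of Atp5a1, the alpha subunit of the same catalytic head, lay a median of 0.17 apart. They had -0.69, 0.11, -0.49, 0.24 and -0.27, and -0.86, -0.10, -0.35, 0.37 and -0.08, both negative on arrays 1 and 3.

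The stalk subunits resembled one another across arrays, but Cox8a, Cyc1 and Ndufa13 of other complexes had a like pattern. The median of all single-symbol genes after centring was -0.35, -0.01, -0.35, 0.08 and -0.22, also positive on array 4 alone. Atp5o, the OSCP of the peripheral stalk, had -0.78, -0.20, -1.20, 0.05 and -0.58. Atp5d, the delta subunit of the central stalk, had -1.36, -0.42, -1.35, 0.42 and -0.58. Both were negative everywhere but on array 4. Atp5pb, the b subunit of the peripheral stalk, had -0.73, 0.01, -0.78, 0.34 and -0.79. These 3 genes had means of -0.54 ± 0.49, -0.66 ± 0.74 and -0.39 ± 0.53 (SD, n = 5 each), with limma adjusted p between 0.455 and 0.557. Atp5md, a small membrane subunit chosen after its values were seen, was positive on 4 of 5 arrays, with a mean of 0.35 ± 0.57. Atp5k, another small membrane subunit, had a mean within 0.01 of 0, with 0.42, -0.42, -0.42, 0.14 and 0.27 on arrays 1 to 5.

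The 2 tested members among carriers and channels had positive means. Other Slc25a carriers and Vdac genes, given further below, mostly had negative means. Vdac1, the main channel of the outer membrane, had 0.08, 0.65, -0.17, 0.68 and 0.24, and Slc25a5, which exchanges ADP for ATP across the inner membrane, -0.97, -0.31, 0.56 and 0.85 on arrays 1, 2, 4 and 5. Vdac1 was positive on 4 of 5 arrays, and Slc25a5 was negative on arrays 1 and 2 and positive on arrays 4 and 5. Their means were 0.30 ± 0.37 (n = 5) and 0.03 ± 0.83 (n = 4), and both turned negative, to -0.16 and -0.36, with no centring.

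**Figure D3:**
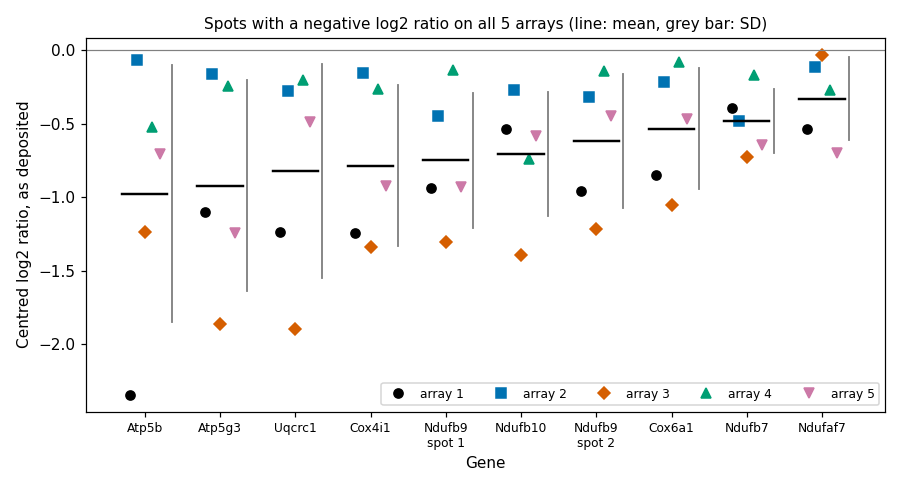
Centred log2 ratios, in the deposited channel order (vertical axis), of the 10 member spots negative on all 5 arrays after centring (horizontal axis). Each array has a symbol, with a line at the mean and a grey bar for the SD. Arrays 1 and 3 lie lowest for most spots and arrays 2 and 4 nearest to 0.

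The remaining members were measured on too few arrays to be tested. Ndufa12 had -2.87, 1.25 and 5.44 on arrays 1 to 3, and 1 further cell held only the filler value. Ndufa2 had 1.34, 1.65 and 1.15 on arrays 1, 3 and 5, all positive. Cox6b2, the testis isoform of a complex IV subunit, had -2.62, -2.37 and -3.75 on arrays 2, 3 and 5, all negative. Ndufb6 had -1.90 and -0.57 on arrays 3 and 4, and Atp5j had 1.04 and 0.43 on arrays 3 and 5. The second spots of Ndufs1 and Vdac1 were each measured on 2 arrays.

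The complexes were then compared with all genes on each array by the median over genes. The median member minus the median of all 4625 tested single-symbol genes was -0.18, -0.15, -0.33, 0.25 and -0.12 on arrays 1 to 5. Over arrays this averaged -0.11 ± 0.22 (SD, n = 5), so members lay slightly below all genes on 4 arrays and above them on array 4. Members below the median of all genes numbered 27 of 45, 32 of 44, 31 of 42, 14 of 44 and 25 of 45 on arrays 1 to 5. Within scanner focus positions, the value was -0.26 ± 0.12 over arrays 1 to 3 (focus 10) and 0.04 ± 0.34 over arrays 4 and 5 (focus 0). Without array 4 it was -0.22 ± 0.10, and without array 3 it was -0.06 ± 0.21.

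By complex, the same difference on arrays 1 to 5 was -0.11, -0.18, -0.43, 0.32 and -0.32 for complex I, a mean of -0.14 ± 0.29. Complex III had 0.06, -0.18, -0.40, 0.06 and 0.12, a mean of -0.07 ± 0.22. Complex IV had -0.13, -0.25, -0.66, 0.14 and -0.26, a mean of -0.23 ± 0.29. ATP synthase had -0.42, -0.19, -0.41, 0.26 and -0.36, a mean of -0.22 ± 0.29 (SD, n = 5 in each case). Complex I, complex IV and ATP synthase shared the same signs on all 5 arrays, with array 4 alone above all genes. No complex had a mean difference larger than its SD over arrays.

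**Figure D4:**
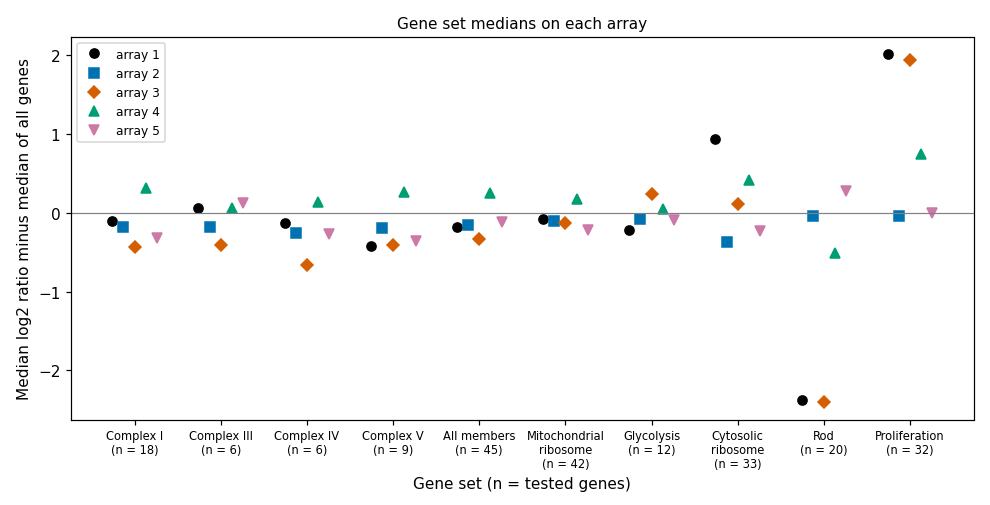
Median log2 ratio of each gene set minus the median of all tested single-symbol genes (vertical axis), with a symbol for each of the 5 arrays and the number of tested genes under each set. The plotted complexes, all members, the mitochondrial ribosome and glycolysis stay within 0.66 of all genes on every array, while rod genes reach -2.40 and proliferation genes 2.01.

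Other mitochondrial genes were set beside the members. The 42 tested genes of the mitochondrial ribosome, which makes the mitochondrially encoded subunits, differed from all genes by -0.08, -0.10, -0.13, 0.18 and -0.22 on arrays 1 to 5, again with array 4 alone positive. The mean was -0.07 ± 0.15, and 2 of 45 spots were negative and 0 positive at an unadjusted p under 0.05. The 12 citric acid cycle genes differed by -0.56, 0.04, -0.22, 0.06 and 0.02, with 1 of 17 spots in each direction at that p. The 12 further assembly factors of the chain had a mean difference of 0.00 ± 0.13 with 2 of 17 spots negative and 0 positive, and the 10 import genes 0.04 ± 0.08 with 0 of 14 negative and 1 positive. Of 13 spots of other Slc25a carriers 1 was negative and 0 were positive at that p, and 10 had a negative mean. These 12 carrier genes had a mean difference of -0.11 ± 0.18, beside -0.11 ± 0.22 for all members. The other Vdac spots both had a negative mean, with a mean difference of -0.24 ± 0.24. None of the 12 antioxidant enzyme, 7 fusion and fission, 5 biogenesis regulator, 4 fatty acid oxidation or 2 other Vdac spots reached that p. No spot in any of these lists passed an adjusted p of 0.05 in limma.

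Glycolysis makes ATP without oxygen, and the retina is known for its heavy use of it. Its 12 genes differed from all genes by -0.22, -0.08, 0.24, 0.05 and -0.10, a mean of -0.02 ± 0.17, with 0 of 14 spots at an unadjusted p under 0.05 in either direction. The 33 cytosolic ribosomal protein genes differed by 0.94, -0.37, 0.12, 0.42 and -0.23, so that their signs were opposite to those of the members on arrays 1 and 3. Their mean was 0.18 ± 0.52, with 0 of 38 spots negative and 1 positive.

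Rod and proliferation markers differed between arrays by more than the members did. The 20 rod genes, of the photoreceptors of dim light, differed from all genes by -2.37, -0.04, -2.40, -0.51 and 0.27. They lay below all genes for 19 of 20 on array 1 and 13 of 18 on array 3, with 4 of 33 spots negative and 0 positive at an unadjusted p under 0.05. The 32 proliferation genes differed by 2.01, -0.04, 1.94, 0.74 and 0.00, with 0 of 39 spots negative and 11 positive. Arrays 1 and 3 held the 2 lowest values of 22 of 47 member spots measured on all arrays (46.8%), Uqcrc1, Cox4i1, Cox8a and Atp5d among them, against 34.0% of single-symbol spots. Both arrays also had the widest spread of ratios. Ndufa4l2 went the other way, with its highest values there. With arrays 1 and 3 left out, 1 of 55 member spots was negative and 0 positive at an unadjusted p under 0.05. Single-symbol spots then gave 225 negative and 183 positive of 6752. The median member differed from all genes by -0.02 ± 0.26 on the other arrays. The 7 cone genes had a mean difference of -0.34 ± 0.73, with 1 of 8 spots negative and 0 positive at that p. The 7 genes of Müller glia had 0.26 ± 0.38 with 2 of 11 negative and 1 positive. The 15 genes of inner retinal neurons had -0.16 ± 0.24 with 2 of 29 negative and 0 positive, and the 5 markers of other tissues -0.48 ± 0.78 with 0 of 5 in either direction. The part of cell makeup in the members' ratios was not tested.

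Arrays 1 and 3, with like medians of rod and proliferation genes, were also set against each other for the members. This comparison was chosen after the values were seen and has 1 array on each side, so it has no replicate check. Members negative on both arrays numbered 26 of 42 (61.9%), against 50.2% of all genes. A further 11 of 42 (26.2%) were positive on array 1 and negative on array 3, against 15.2% of all genes. These were Ndufa6, Ndufa4, Ndufc2 and Ndufb11, Uqcrh and Uqcr11, Cox7a2, Atp5md, Atp5g2 and Atp5k, and Vdac1. Ndufa6 differed most among them, with 0.96 on array 1 and -1.18 on array 3.

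Of 42 members, 27 were higher on array 1 than on array 3. Among those that were lower on array 1 were Ndufs3, Ndufs7, Ndufs8, Ndufa9, Sdhd, Cyc1 and Atp5a1. Ndufs3 had -1.07 on array 1 and -0.30 on array 3. The median difference, array 1 minus array 3, was 0.34 over members and 0.06 over all genes. It was 0.89 over the cytosolic ribosomal protein genes, 0.11 over those of the mitochondrial ribosome, -0.07 over the citric acid cycle, -0.43 over glycolysis, -0.28 over rod genes and -0.09 over proliferation genes.

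**Figure D5:**
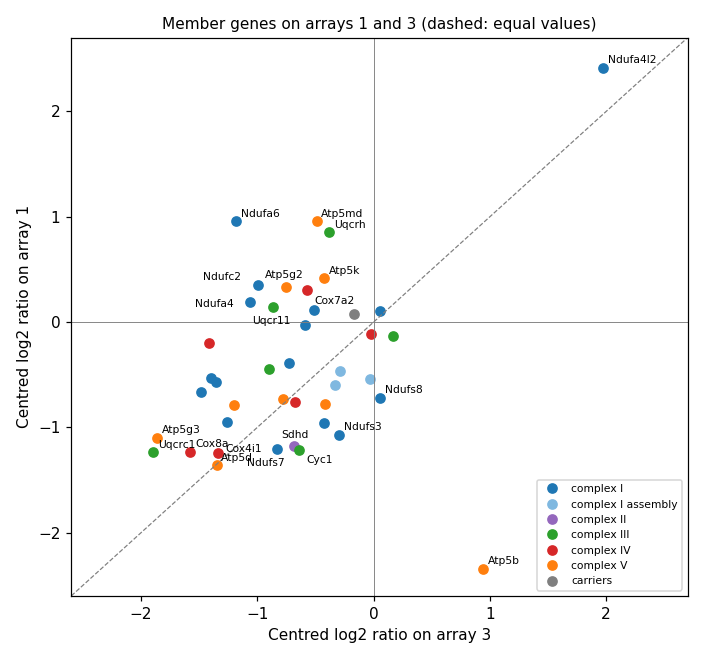
Centred log2 ratio on array 1 (vertical axis) against array 3 (horizontal axis) for 42 member genes, each the mean of its tested spots, coloured by complex, with a dashed line at equal values. The upper left holds 11 members that were positive on array 1 and negative on array 3, and Ndufa4l2 stands apart at the upper right. Atp5b stands apart at the lower right because its spot at 3.12 on array 3 was not measured on array 1.

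How alike the arrays ranked the members was described by correlation across genes, which are not independent replicates and share array, labelling and scan. Over 40 members measured on all arrays, with Atp5b by its first spot, arrays 4 and 5 had a Pearson r of 0.61 and a Spearman rho of 0.59, against 0.09 and 0.17 over 3791 genes. Arrays 1 and 3 had 0.56 and 0.40 over members, and 0.39 and 0.41 over all genes. Arrays 1 and 2 had -0.40 and -0.30 over members, and -0.06 and -0.11 over all genes. The Pearson r was 0.46 over members for arrays 1 and 4 and 0.42 for arrays 3 and 4, against 0.12 and 0.07 over all genes. For arrays 2 and 4 it was 0.17 over members and 0.35 over all genes. Members had the higher r in 7 of 10 pairs of arrays. These 40 members were less spread than the 3791 genes on every array. Their SDs were 0.85, 0.37, 0.69, 0.45 and 0.41, against 1.07, 0.80, 1.12, 0.89 and 0.85 on arrays 1 to 5. In the set of all genes every gene, Atp5b included, was the mean of its tested spots, so the sets were treated differently. Ndufab1, at -4.03 on array 4, and Ndufv3, at -3.76 on array 2, are not among the 40, since each lacked a value on some array.

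Members were last grouped by the promoter letters shown above. The 13 tested genes with NRF1 letters had a median gene mean of -0.35, from -0.92 for Atp5g3 to 0.06 for Ndufa11, and 11 of 13 were negative. The 24 tested genes whose windows lacked them had a median of -0.21, from -2.02 for Ndufab1 to 0.35 for Atp5md, and 16 of 24 were negative. The first range lay inside the second, and the difference was not tested. Ndufb9 and Cox4i1, both negative on all arrays, are among the 8 tested genes for which the table lists no promoter.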

How the data were processed

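Per the labels, the authors scanned each array at 635 and 532 nm and quantified it with GenePix Pro 4.1.1.29, subtracting local background and applying no normalization. The deposited values were treated as log2 ratios, a scale inferred from the values. The dyes, and the filter that left cells empty, are not stated in the sources used here.

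Cells at 16.61, the log2 of a filler ratio, were set to missing (106 to 141 per array), a choice made after the values were seen. Deposited medians were -0.755, -0.025, -0.715, -0.0575 and -0.742 on arrays 1 to 5, so each array was centred on its median. After centring, the median of all single-symbol genes was -0.35, -0.01, -0.35, 0.08 and -0.22, and gene sets are given relative to it. Signal over background was not used, and the number of arrays limits the precision. The 192 control spots for ACTB were left out.

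Spots measured on at least 4 of 5 arrays were tested with lmFit and eBayes in limma 3.58.1 (R 4.3.3). The code was first run on simulated data, where recovery was required only at a spread far below the observed one. That check does not show what the test can detect at the observed spread. A gene's value was the mean of its tested spots. Names came from the platform annotation, where 353 spots had several symbols and 9061 none. All 61 member spots matched the RefSeq table of GRCm38.p6, and 41 of 50 genes had a promoter there. Members, lists and tests were chosen with earlier results of these data known. Array values are given for the up to 5 genes with the smallest limma p in complexes I, III, IV and V, for all tested genes of complex II, Cyc1 and the carriers, and for genes with 2 or more tested spots. Any other gene given by its array values was chosen after they were seen. Alternatives covered centring, scaling, filters, the test, left-out arrays and scanner focus position.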

Additional observations from a re-analysis of the deposited data

Results flagged for a closer look

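Of 44 results checked for an array far from the others, 1 met the criterion, where chance gives about 1 in 20, or 2.2. The third Ndufb11 spot stood at 1.04 on array 4, while the other arrays lay between -0.35 and 0.03. The other Ndufb11 spots were also positive on array 4, at 2.33 and 0.46.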

How the results depend on the processing

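No member spot passed an adjusted p of 0.05 under any of 21 alternatives, nor did any other tested spot. The 7 of 54 member spots negative at an unadjusted p under 0.05 became 13 of 54 with no centring. They became 4 with centring on the spots of all 5 arrays and 4 with centring on single-symbol spots. With arrays 1 and 3 left out they numbered 1 of 55. They numbered 1 of 59 at focus position 10 alone and 1 of 52 at focus position 0 alone. With focus position as a random block they numbered 13 of 54. Single-symbol spots gave 360 of 5822 in the main fit and 1144 of 5822 with no centring. They gave 225 of 6752 without arrays 1 and 3 and 133 of 6797 at focus position 10 alone. They gave 144 of 5715 at focus position 0 alone and 839 of 5822 with the random block. Leaving out 1 array gave 0 to 6, where single-symbol spots gave 196 to 320 negative in place of 360. With arrays left out, spots on fewer arrays were also tested. The positive count of 0 became 1 with no centring, 1 with spots on at least 3 arrays, 1 at focus position 0 alone and 1 with the random block, and 0 to 2 when 1 array was left out. Positive single-symbol spots were then 60 of 5822, 234 of 7003, 104 of 5715 and 312 of 5822 in that order. With 1 array left out they numbered 146 to 207. Over all tested spots, 592 negative and 554 positive became 1837 and 270 with no centring, 363 and 775 with centring on the spots of all 5 arrays, and 1266 and 826 with the random block. The median member minus all genes ranged from -0.26 to 0.04 and was positive only at focus position 0 alone.

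Of 36 named spots, 22 kept their sign under every alternative and 14 changed it in 37 of 733 values. The unmoderated and robust forms of the test, and other minimum numbers of arrays, leave a spot's mean as it was. Taking gene means does so for genes with a single tested spot. Those settings could not change a sign, yet their values are among the 733. Spots of a gene are numbered below in the order in which they were given above. With no centring the changed means were -0.16 for Vdac1, -0.25 for Cox7a2l, -0.36 for Slc25a5 and -0.27 for Uqcrh. They were also -0.18 for the first Ndufa11 spot, -0.38 for the third Ndufb11 spot and -0.43 for the second Ndufa9 spot. Centring on the spots of all 5 arrays gave 0.00300 for the second Ndufa11 spot, 0.0314 for Uqcr11 and 0.055 for the second Ndufb11 spot. Centring on single-symbol spots gave 0.0152 for Uqcr11 and 0.0388 for the second Ndufb11 spot. Without arrays 1 and 3 the means were 0.15 for the second Ndufa11 spot, 0.0345 for Uqcr11 and 0.19 for the second Sdhd spot. They were 0.0262 and 0.0628 for the first and second Atp5a1 spots. At focus position 10 alone the means were -0.000333 for the first and -0.20 for the third Ndufb11 spot. They were -0.0923 for the first Ndufa11 spot, -0.0573 for Cox7a2l, -0.64 for Slc25a5 and -0.20 for the second Ndufa9 spot. At focus position 0 alone they were 0.33 for Ndufa11, 0.12 for Sdhd, 0.16 for Ndufb11 and 0.15 for Atp5a1, each by the second spot. Uqcr11 had 0.22 there, and the random block gave -0.00784 for the second Ndufa9 spot. Leaving out 1 array at a time gave a range of -0.321 to 0.0319 for the second Sdhd spot. For the second Ndufa11 and Ndufa9 spots the ranges were -0.348 to 0.0176 and -0.17 to 0.184. The second Ndufb11 spot ranged from -0.269 to 0.109 and the third from -0.164 to 0.183. Uqcr11 ranged from -0.268 to 0.0619 and Slc25a5 from -0.239 to 0.367. The causes were not tested. No paired analysis was possible because the arrays form 1 group and each ratio is already within an array.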
